A study of Mus musculus with 13 samples.

Results

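The genes described here encode the sarcomere, the contractile unit of striated muscle, together with other proteins of differentiated muscle. They comprise 45 listed genes, and all 45 of 45 were measured, among 18193 genes on the arrays. Their values come from 72 of 45037 probe sets, namely those whose platform annotation names only a listed gene, averaged per gene as log2 ratios. In 30 of the 45 genes this was a single probe set, and 15 had several. Another 2 probe sets name both Myh7 and Myh6 and were left out.

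The arrays followed C2C12 cells, an established mouse line of muscle precursor cells that can fuse and form contractile fibres in culture, through the first 6 h after serum was given back. The cells had grown in medium with 5% fetal bovine serum to 90% confluence, had been kept for 24 h in 0.2% serum, and were then placed in serum-supplemented medium again, in parallel flasks of the same line with no other treatment. One array was made at each of 13 time points, every 0.5 h from 0 to 6.0 h, to look for genes with oscillating expression. Later times of the collection were not analysed here. By labelled time the arrays form the 0 h sample (1 array, the end of serum deprivation), an early window (0.5 to 2.0 h, 4 arrays), a middle window (2.5 to 4.0 h, 4 arrays) and a late window (4.5 to 6.0 h, 4 arrays).

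In a sarcomere, myosin of the thick filament pulls on actin of the thin filament. Calcium released from the sarcoplasmic reticulum binds troponin C, and troponin I and troponin T pass this on to the thin filament, which then admits myosin. Most of these proteins exist as isoforms from separate genes that mark fast fibres, slow fibres (often shared with heart) or developing muscle. Myoblasts held in low serum can leave the cell cycle and begin to express such genes, under the control of MyoD, myogenin and MEF2 factors, while serum keeps them dividing.

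The deposited values are linear ratios, each probe set scaled on its own, so they show changes of a gene and no absolute level, and no gene's level can be set against another's. It could therefore not be checked how strongly these muscle genes, or the markers of the myoblasts named in the labels, were expressed. The medians of the arrays lay between 0.977 and 1.00. Changes are given as log2 differences ± standard error, from 1 limma model of the window means over all 13 arrays, with Benjamini-Hochberg adjustment over all 18193 genes and a threshold of 0.05. Arrays within a window are neighbouring time points and not replicates, so these p-values measure the spread within windows, in which real change and technical variation are joined. The single 0 h array is taken to vary like the others. In such bulk samples, fewer cells expressing a gene and less RNA per cell cannot be told apart.

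Most of the movement lay between the early and the late window, and it was upward. Of the 45 genes, 21 rose from the early to the late window, where 11.7% of all genes did, and 1 fell, where 9.29% of all genes did. The rises were small, from 0.21 to 0.67 on the log2 scale, or 1.16- to 1.59-fold. The change was above 0 in 37 of the 45 genes (82.2%), against 56.0% of all genes, and an unadjusted p under 0.05 was reached by 24 (53.3%), against 31.6%. The median change of the 45 genes was 0.21, against 0.019 over all genes. The late arrays all lay above the early arrays in 21 genes, or 46.7%, against 14.1% of all genes, and below them in 2 (Ttn and Ldb3), against 11.1%. By role, 8 of 10 thin filament genes rose (median 0.46), as did 3 of 4 metabolic genes (median 0.27), 6 of 14 thick filament genes (median 0.20), 2 of 7 genes of calcium handling and the membrane (median 0.096) and 2 of 10 genes of the Z disc, the M band and the elastic filament (median 0.021). Differences between these groups of genes were not tested.

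**Figure D1:**
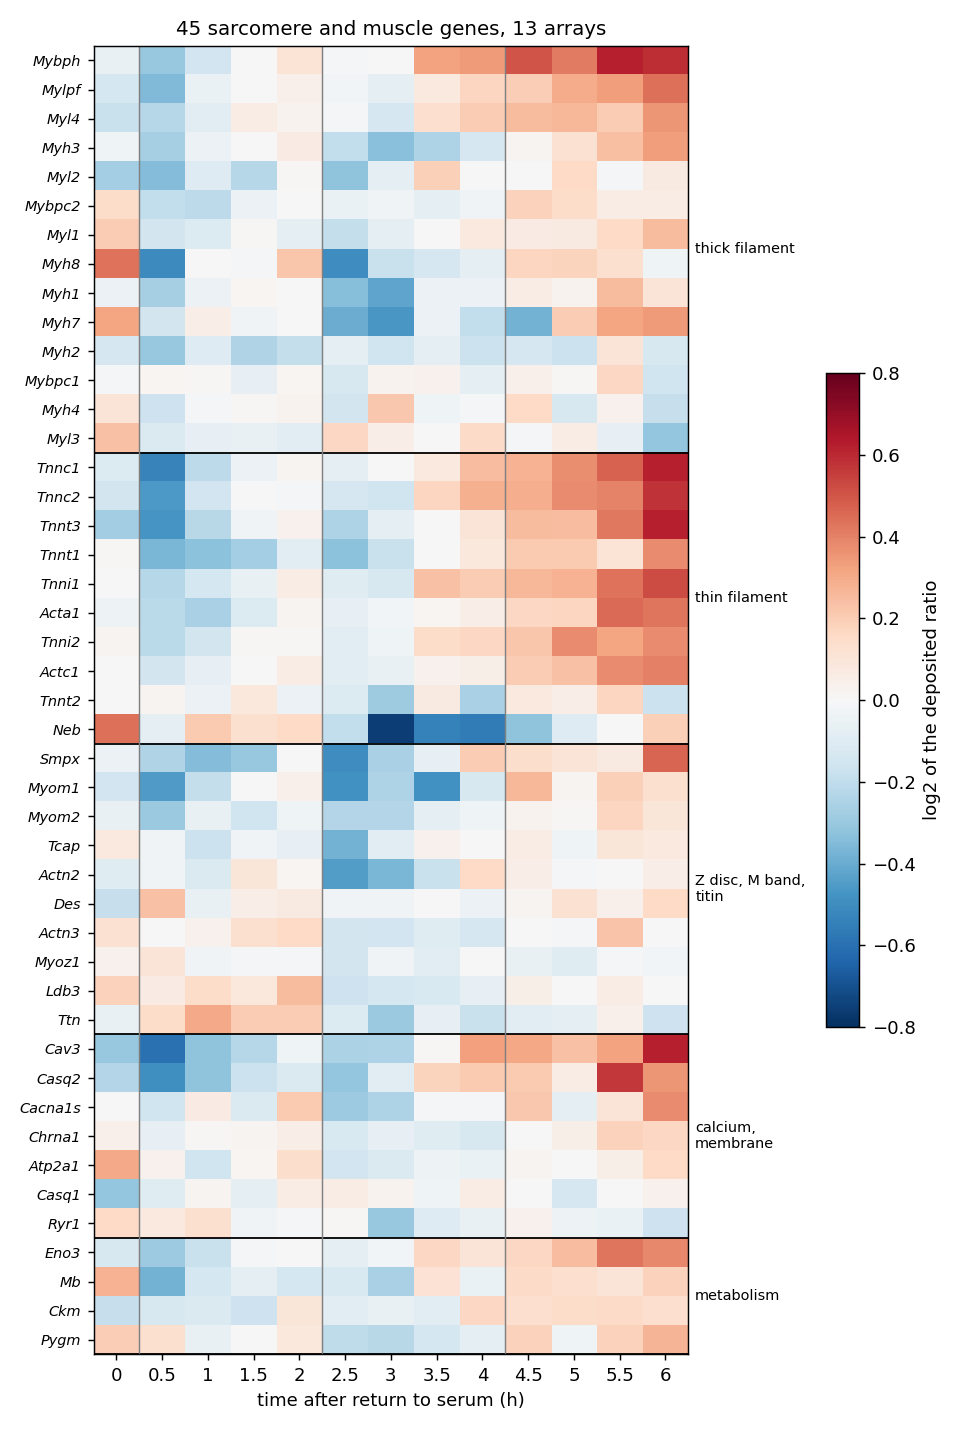
Log2 of the deposited ratio of each of the 45 genes (rows, grouped by role and ordered by late minus early change) on the 13 arrays (columns, time after the return to serum in h; vertical lines part the 0 h, early, middle and late windows). Tnnc1, at the top of the thin filament group, runs from -0.53 at 0.5 h to 0.62 at 6.0 h, whereas Neb, at the bottom of it, is lowest at 3.0 h (-0.75).

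Among the thin filament genes, both isoforms of troponin C, the calcium sensor of the filament, rose. The ratio of Tnnc1, its slow and cardiac isoform, was 0.926 at 0 h, then 0.691, 0.866, 0.969 and 1.01 from 0.5 to 2.0 h, 0.953, 1.00, 1.06 and 1.19 from 2.5 to 4.0 h, and 1.21, 1.29, 1.39 and 1.54 from 4.5 to 6.0 h. It was lowest at 0.5 h and highest at 6.0 h, and every late array was above every early one. The rise from the early to the late window was 0.63 ± 0.11 (adjusted p = 0.000981). Tnnc2, the fast isoform, stood at 0.905 at 0 h, then 0.726, 0.900, 1.00 and 0.990 from 0.5 to 2.0 h, 0.912, 0.896, 1.12 and 1.22 from 2.5 to 4.0 h, and 1.22, 1.30, 1.31 and 1.49 from 4.5 to 6.0 h. Its windows did not overlap either, and it rose by 0.57 ± 0.12 (adjusted p = 0.00256). At 6.0 h the ratios of these genes were 1.66 and 1.65 times those at 0 h, and at 0.5 h they were 0.746 and 0.802 times those at 0 h.

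Troponin I, the inhibitory subunit, rose in both isoforms. For Tnni1, the slow isoform, the ratio was 1.00 at 0 h, then 0.852, 0.909, 0.959 and 1.04 from 0.5 to 2.0 h, 0.934, 0.915, 1.18 and 1.15 from 2.5 to 4.0 h, and 1.20, 1.21, 1.35 and 1.44 from 4.5 to 6.0 h. The late arrays all exceeded the early ones, and the rise was 0.47 ± 0.09 (adjusted p = 0.00246). Tnni2, the fast isoform, rose by 0.41 ± 0.07 (adjusted p = 0.00113) as a mean over 3 probe sets, whose own changes were 0.64, 0.51 and 0.077. The probe set with the largest change ran from 0.737 at 0.5 h to 1.55 at 6.0 h, and the one with the smallest stayed between 0.965 and 1.22.

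Troponin T anchors the complex to tropomyosin. Tnnt3, its fast isoform, had ratios of 0.825 at 0 h, then 0.720, 0.858, 0.981 and 1.02 from 0.5 to 2.0 h, 0.841, 0.952, 1.00 and 1.07 from 2.5 to 4.0 h, and 1.19, 1.19, 1.34 and 1.54 from 4.5 to 6.0 h. No late array was as low as any early one, and the rise was 0.56 ± 0.11 (adjusted p = 0.00253). Tnnt1, the slow isoform, was at 1.01 at 0 h, then 0.777, 0.798, 0.83 and 0.940 from 0.5 to 2.0 h, 0.797, 0.883, 1.00 and 1.06 from 2.5 to 4.0 h, and 1.16, 1.16, 1.08 and 1.30 from 4.5 to 6.0 h. It stood higher at 0 h than on any early array, then rose by 0.49 ± 0.09 (adjusted p = 0.00128). Tnnt2, the cardiac isoform that is also made in developing skeletal muscle, was at 0.028 ± 0.09 (adjusted p = 0.873), a mean over probe sets that disagreed. Of its 3 probe sets, 2 changed by 0.32 and 0.32 and the third by -0.55. The third varied between 0.452 and 1.32 over the 13 arrays, whereas the other two kept within 0.872 to 1.26.

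Both sarcomeric actins rose. Acta1, the skeletal actin of adult muscle, had ratios of 0.971 at 0 h, then 0.860, 0.834, 0.925 and 1.02 from 0.5 to 2.0 h, 0.955, 0.985, 1.01 and 1.04 from 2.5 to 4.0 h, and 1.12, 1.13, 1.37 and 1.34 from 4.5 to 6.0 h. The highest values were those at 5.5 and 6.0 h, and the rise was 0.45 ± 0.08 (adjusted p = 0.000992). Actc1, the cardiac actin that is the main sarcomeric isoform of developing muscle, was at 0.998 at 0 h, then 0.903, 0.957, 1.00 and 1.04 from 0.5 to 2.0 h, 0.940, 0.958, 1.02 and 1.03 from 2.5 to 4.0 h, and 1.15, 1.18, 1.30 and 1.32 from 4.5 to 6.0 h. It rose by 0.34 ± 0.06 (adjusted p = 0.00143), again without overlap between the windows. The remaining thin filament gene, Neb, which encodes the giant ruler protein nebulin, took another course and is described with titin.

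Promoter sequences of 4 of these genes that rose together are shown so that their sequence can be read beside the changes. They are RefSeq windows of build GRCm38.p6, each from 250 bases before to 50 bases after the annotated start, and capitals mark matches on either strand to the E-box (CANNTG, bound by MyoD family factors), the CArG box of serum response factor, the MCAT element (CATTCCT), the MEF2 site and the letters TATAAA. The windows lie at chr8:123894726-123895025, minus strand (Acta1), chr2:114052826-114053125, minus strand (Actc1), chr14:31208062-31208361, plus strand (Tnnc1) and chr1:135799171-135799470, plus strand (Tnni1, the first of 2 listed windows).
Acta1: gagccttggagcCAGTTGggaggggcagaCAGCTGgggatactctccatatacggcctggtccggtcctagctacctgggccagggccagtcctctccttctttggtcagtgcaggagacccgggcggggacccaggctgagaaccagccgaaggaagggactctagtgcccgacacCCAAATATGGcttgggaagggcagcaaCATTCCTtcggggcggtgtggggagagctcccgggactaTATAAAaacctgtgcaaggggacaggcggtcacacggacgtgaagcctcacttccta
Actc1: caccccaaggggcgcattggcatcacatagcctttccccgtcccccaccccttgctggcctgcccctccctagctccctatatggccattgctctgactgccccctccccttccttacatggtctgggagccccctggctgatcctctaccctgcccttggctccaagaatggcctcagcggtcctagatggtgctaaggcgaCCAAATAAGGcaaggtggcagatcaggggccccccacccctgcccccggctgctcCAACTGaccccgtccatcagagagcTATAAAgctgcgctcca
Tnnc1: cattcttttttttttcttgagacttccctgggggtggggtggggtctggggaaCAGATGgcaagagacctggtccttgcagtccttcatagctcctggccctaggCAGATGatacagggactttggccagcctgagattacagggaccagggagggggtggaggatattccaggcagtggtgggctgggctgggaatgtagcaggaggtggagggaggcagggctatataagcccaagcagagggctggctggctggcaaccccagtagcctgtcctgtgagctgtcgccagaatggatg
Tnni1: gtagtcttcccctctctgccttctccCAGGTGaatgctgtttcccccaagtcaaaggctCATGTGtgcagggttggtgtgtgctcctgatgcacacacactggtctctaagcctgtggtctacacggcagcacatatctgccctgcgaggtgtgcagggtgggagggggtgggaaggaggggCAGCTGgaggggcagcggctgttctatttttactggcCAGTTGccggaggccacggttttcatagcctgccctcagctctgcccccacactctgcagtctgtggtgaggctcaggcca
Both actin windows hold an E-box, a CArG box and TATAAA, and that of Acta1 also an MCAT element. The windows of Tnnc1 and Tnni1 hold E-boxes and no match to the other motifs searched, and none of the 4 has a MEF2 match. The table had 45 windows for 38 of the 45 genes, some of them overlapping starts of the same gene. An E-box was found in 38 of these windows (84.4%, against 72.3% of all 32851 windows), a CArG box in 7 (15.6%, against 1.63%), a MEF2 site in 5 (11.1%, against 3.19%), an MCAT element in 5 (11.1%, against 5.36%) and TATAAA in 11 (24.4%, against 13.6%). The genes that rose had 21 windows, which belong to 18 of them. Among these windows, the E-box was in 19 (90.5%), TATAAA in 6 (28.6%), the CArG box in 2 (9.52%), the MCAT element in 2 (9.52%) and the MEF2 site in 1 (4.76%). These are matches of letters only.

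In the thick filament, the gene with the largest change was Mybph, which encodes a relative of myosin-binding protein C. Its ratios were 0.961 at 0 h, then 0.809, 0.899, 1.00 and 1.08 from 0.5 to 2.0 h, 0.988, 0.998, 1.25 and 1.27 from 2.5 to 4.0 h, and 1.42, 1.33, 1.54 and 1.51 from 4.5 to 6.0 h. Every late ratio was at or above 1.33, no earlier one exceeded 1.27, and the rise was 0.62 ± 0.10 (adjusted p = 0.000540). Mylpf, the phosphorylatable light chain of fast fibres, stood at 0.906 at 0 h, then 0.782, 0.965, 1.00 and 1.03 from 0.5 to 2.0 h, 0.984, 0.949, 1.06 and 1.13 from 2.5 to 4.0 h, and 1.14, 1.23, 1.26 and 1.36 from 4.5 to 6.0 h and rose by 0.41 ± 0.09 (adjusted p = 0.00354). Myl4, the light chain of embryonic muscle and of the atria, rose by 0.32 ± 0.08 (adjusted p = 0.00931) as a mean over probe sets at 0.83 and -0.19, which moved in opposite directions. Smaller rises were those of Myl1 (0.22 ± 0.07, adjusted p = 0.0286), the alkali light chain of fast fibres, and of Mybpc2 (0.22 ± 0.06, adjusted p = 0.0128), the fast myosin-binding protein C. Myl2 and Myl3, light chains of slow fibres and heart, were at 0.22 ± 0.10 (adjusted p = 0.132) and -0.0027 ± 0.07 (adjusted p = 0.987).

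Of the myosin heavy chain genes, which encode the motor itself, 1 of 6 passed, upward, where 11.7% of all genes rose. For so few genes this count was near the share of all genes. Myh3, the embryonic heavy chain, was at 0.978 at 0 h, then 0.831, 0.969, 1.00 and 1.04 from 0.5 to 2.0 h, 0.874, 0.793, 0.844 and 0.911 from 2.5 to 4.0 h, and 1.01, 1.09, 1.18 and 1.26 from 4.5 to 6.0 h. It had a low at 3.0 h and its highest ratio at 6.0 h, the windows overlapped, and the difference was 0.24 ± 0.08 (adjusted p = 0.0481). The others were Myh8, the perinatal chain (0.19 ± 0.13, adjusted p = 0.361), Myh1 (0.19 ± 0.09, adjusted p = 0.192), Myh2 (0.12 ± 0.07, adjusted p = 0.220) and Myh4 (0.006 ± 0.09, adjusted p = 0.976), the fast chains of adult fibres, and Myh7, the slow chain (0.15 ± 0.14, adjusted p = 0.499). Myh1 was a mean over probe sets at 0.34, 0.25 and -0.033, and by this mean every late array was above every early one. Within the middle window Myh7 was at a ratio of 0.725 at 3.0 h, and it was at 0.770 at 4.5 h before 3 late ratios of 1.15 to 1.27. Without the 4.5 h array its difference was 0.32 (adjusted p = 0.0277). Myh3, Myh2, Myh1, Myh4 and Myh8 are consecutive protein-coding genes in the RefSeq table. Their changes ranged from 0.006 to 0.24. Mybpc1, the slow myosin-binding protein C, was at 0.022 ± 0.07.

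At the membrane and in calcium handling, 2 of 7 genes rose (28.6%, against 11.7% of all genes). Cav3, the muscle caveolin of the cell membrane and the transverse tubules, had the largest change of the 45 genes. Its ratios were 0.811 at 0 h, then 0.662, 0.80, 0.852 and 0.977 from 0.5 to 2.0 h, 0.838, 0.843, 1.01 and 1.26 from 2.5 to 4.0 h, and 1.24, 1.17, 1.25 and 1.54 from 4.5 to 6.0 h. The lowest was at 0.5 h, the highest at 6.0 h, and the rise was 0.67 ± 0.14 (adjusted p = 0.00268). Casq2, the calcium-storing calsequestrin of slow fibres and heart, was at 0.851 at 0 h, then 0.711, 0.80, 0.888 and 0.924 from 0.5 to 2.0 h, 0.807, 0.941, 1.13 and 1.16 from 2.5 to 4.0 h, and 1.16, 1.04, 1.48 and 1.28 from 4.5 to 6.0 h and rose by 0.57 ± 0.13 (adjusted p = 0.00453). The 5.0 h array was the lowest of its late window and still lay above every early array. Casq1, the fast isoform, was at 0.807 at 0 h, then 0.936, 1.01, 0.947 and 1.04 from 0.5 to 2.0 h, 1.04, 1.02, 0.975 and 1.04 from 2.5 to 4.0 h, and 1.00, 0.912, 1.00 and 1.03 from 4.5 to 6.0 h, with overlapping windows and a difference of -0.001 ± 0.06 (adjusted p = 0.993). The calcium pump Atp2a1 (0.047 ± 0.06, adjusted p = 0.695), the voltage sensor Cacna1s (0.16 ± 0.10, adjusted p = 0.341), the release channel Ryr1 (-0.10 ± 0.07, adjusted p = 0.374) and the acetylcholine receptor subunit Chrna1 (0.096 ± 0.05, adjusted p = 0.257) did not pass.

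Metabolic genes of muscle were led by Eno3, the muscle enolase of glycolysis, at 0.914 at 0 h, then 0.817, 0.884, 0.994 and 1.00 from 0.5 to 2.0 h, 0.949, 0.986, 1.12 and 1.07 from 2.5 to 4.0 h, and 1.12, 1.19, 1.34 and 1.30 from 4.5 to 6.0 h. It rose by 0.42 ± 0.08 (adjusted p = 0.00174). Mb, myoglobin, which stores oxygen, rose by 0.33 ± 0.08 (adjusted p = 0.00842) over probe sets at 0.16 and 0.50. The first of these had its highest ratio, 1.49, at 0 h and did not regain it, and the second was lowest at 0.5 h (0.697) and highest at 4.5 h (1.24). Ckm, the muscle creatine kinase, rose by 0.22 ± 0.07 (adjusted p = 0.0372), with probe sets at 0.45 and -0.0085. Pygm, the muscle glycogen phosphorylase, was at 0.11 ± 0.07 (adjusted p = 0.296).

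Of 10 genes of the Z disc, the M band and the elastic filament, 2 rose and 1 fell. Smpx, a small protein of costameres, rose by 0.42 ± 0.13 (adjusted p = 0.0342), and Myom2, an M-band protein, rose by 0.21 ± 0.07 (adjusted p = 0.0445) over 4 probe sets between -0.14 and 0.43. The 2 probe sets of Myom2 whose suffix marks possible cross-hybridisation were at 0.35 and 0.43, and without them its change was 0.037 (adjusted p = 0.749). Ttn, titin, the elastic filament that spans the half-sarcomere, was the only one of the 45 genes that fell. Its log2 ratios, as means over 6 probe sets, were -0.062 at 0 h, then 0.15, 0.30, 0.20 and 0.20 from 0.5 to 2.0 h, -0.11, -0.30, -0.064 and -0.18 from 2.5 to 4.0 h, and -0.091, -0.074, 0.041 and -0.16 from 4.5 to 6.0 h. Every early array was above every late one, and the change was -0.29 ± 0.06 (adjusted p = 0.00488), with all 6 probe sets lower in the late window, by values from -0.13 to -0.70. The others were Actn2 (0.031 ± 0.10) and Actn3 (-0.025 ± 0.06), the actinins that cross-link actin at the Z disc, the intermediate filament gene Des (0.011 ± 0.06), the Z-disc genes Tcap (0.12 ± 0.08), Myoz1 (-0.059 ± 0.05) and Ldb3 (-0.11 ± 0.05), and the M-band gene Myom1 (0.30 ± 0.11), at adjusted p from 0.0610 (Myom1) to 0.931 (Des). The probe sets of Ldb3 were at 0.28, -0.32 and -0.29, and those of Des at 0.22 and -0.20.

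**Figure D2:**
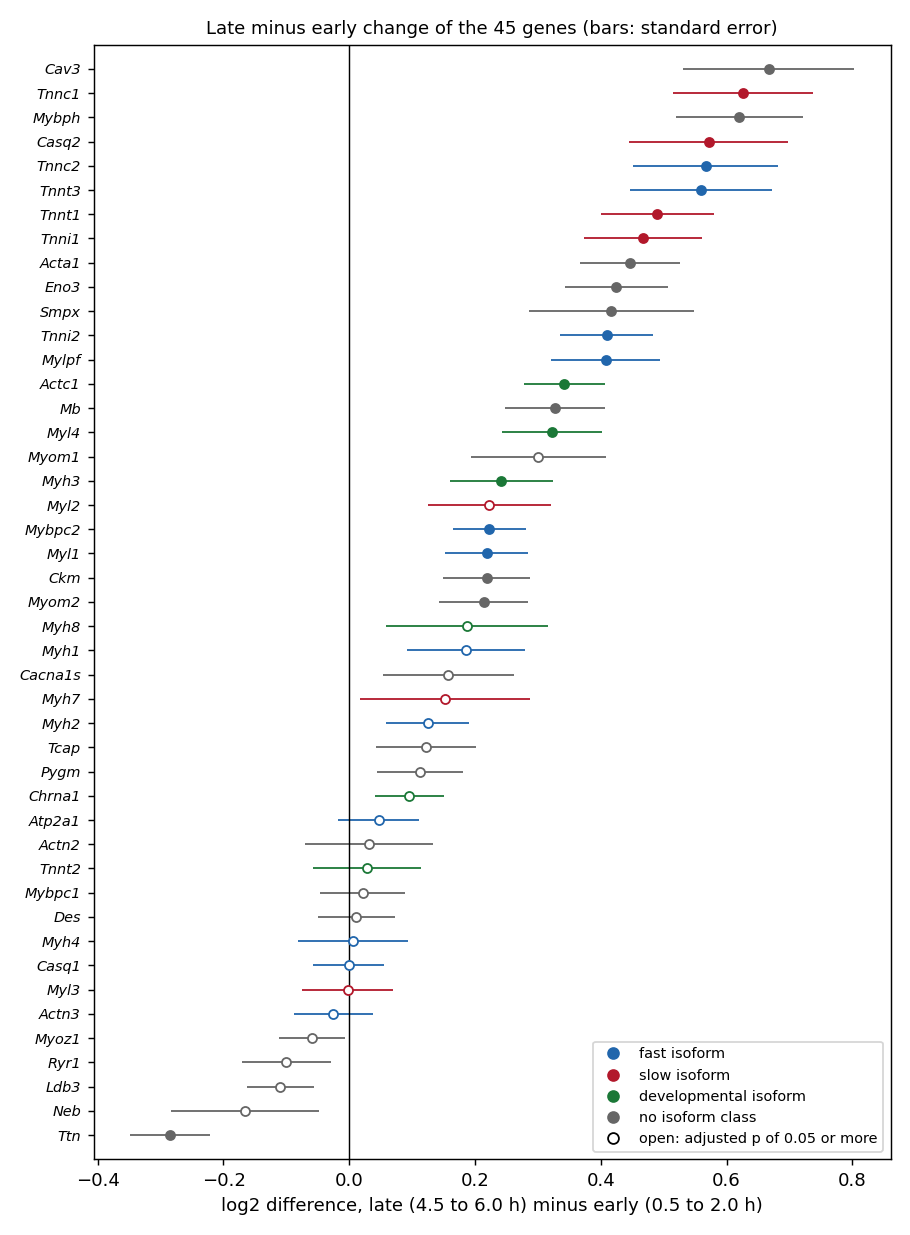
Late minus early difference in log2 ratio of the 45 genes (points; bars are standard errors), ordered by size and coloured by isoform class; filled points have an adjusted p under 0.05. The filled points run from Ttn at -0.29 to Cav3 at 0.67, and 21 of the 22 lie above 0.

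Fast, slow and developmental isoforms were all among the genes that rose. Of 12 fast genes 6 rose (median 0.20), of 7 genes listed as slow 4 rose (median 0.47) and of 6 developmental genes 3 rose (median 0.21). None of the 25 fell. From the early to the late window 11.7% of all genes rose and 9.29% fell, so few falls would be likely among 25 genes in any case. Mybpc1 was not in the slow list, and with it added after the values were seen, 4 of 8 rose with a median of 0.34. The difference between the classes was not tested. Within isoform pairs, the late minus early change of the slow or developmental gene less that of its fast or later partner was taken in the same window model, with intervals not adjusted for the 9 pairs. It was 0.06 ± 0.05 (95% interval -0.058 to 0.18) for Tnnc1 less Tnnc2, 0.057 ± 0.06 (95% interval -0.074 to 0.19) for Tnni1 less Tnni2 and -0.069 ± 0.09 (95% interval -0.26 to 0.12) for Tnnt1 less Tnnt3. In all 3 troponin pairs the interval held 0 and reached no further than -0.26 or 0.19.

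By gene means, the calsequestrin pair differed most, with Casq2 less Casq1 at 0.57 ± 0.14 (95% interval 0.25 to 0.89). On the early arrays this difference of log2 ratios lay between -0.40 and -0.093, and on the late arrays between 0.19 and 0.56. Actc1 less Acta1 was at -0.10 ± 0.04 (95% interval -0.20 to -0.014), and this difference of log2 ratios lay between 0.034 and 0.20 on the early and between -0.076 and 0.064 on the late arrays, which overlap. Mybpc1 less Mybpc2 was at -0.20 ± 0.09 (95% interval -0.40 to -0.0071). The intervals of the other 3 pairs held 0, at 0.10 ± 0.06 (95% interval -0.035 to 0.24) for Myl4 less Myl1, 0.055 ± 0.14 (95% interval -0.27 to 0.38) for Myh3 less Myh8 and 0.057 ± 0.12 (95% interval -0.22 to 0.34) for Actn2 less Actn3. Myl4 entered as a mean over probe sets at 0.83 and -0.19, so the value of its pair depends on which probe set is taken. Against 0 h, the late difference was 0.51 ± 0.10 (95% interval 0.29 to 0.73) for Myl4 less Myl1, 0.53 ± 0.23 (95% interval 0.02 to 1.05) for Myh3 less Myh8 and -0.45 ± 0.13 (95% interval -0.75 to -0.14) for Tnnt1 less Tnnt3, and in the other 6 pairs its interval held 0.

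**Figure D3:**
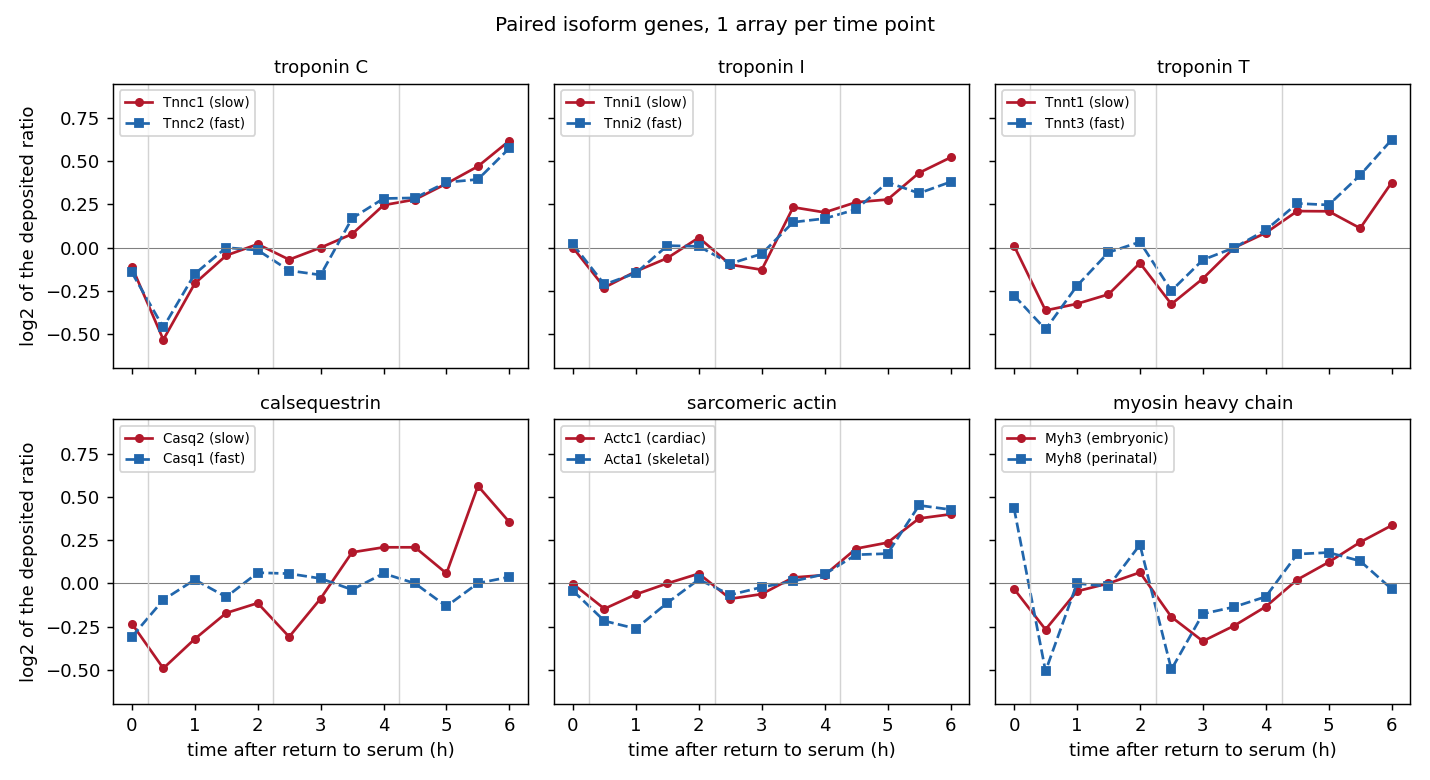
Log2 of the deposited ratio (vertical axis) against time after the return to serum in h (horizontal axis) for 6 isoform pairs, with 1 array per point; grey vertical lines part the windows. Both troponin C genes run together from -0.53 and -0.46 at 0.5 h to 0.62 and 0.58 at 6.0 h, whereas Casq2 and Casq1 are at 0.56 and 0.0014 at 5.5 h.

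Between 0 h and the early window 0 of the 45 genes passed the threshold in either direction (limma), where 1.46% of all genes were called higher and 1.81% lower. At an unadjusted p under 0.05 there were 9 of 45 genes (20%), against 19.9% of all genes, and the change was above 0 in 15 (33.3%), against 42.9%. This comparison rests on a single 0 h array. The largest values upward were those of Casq1 (0.29 ± 0.09), Ttn (0.28 ± 0.10), Des (0.26 ± 0.10), Myl4 (0.12 ± 0.13), Ckm (0.11 ± 0.11) and Tnnt3 (0.11 ± 0.18). Downward they were those of Myh8 (-0.51 ± 0.20), Mb (-0.46 ± 0.13), Myh7 (-0.35 ± 0.21), Neb (-0.33 ± 0.19), Myl3 (-0.31 ± 0.11) and Atp2a1 (-0.30 ± 0.10). In Des (-0.012 and 0.53) and Ckm (-0.13 and 0.35) the probe sets differed in sign here, and in Mb both fell (-0.70 and -0.23). Mb came nearest to the threshold at adjusted p = 0.0587, and it passed when the 0.5, 3.0 or 3.5 h array was left out (adjusted p = 0.0456, 0.0451 and 0.0462). The 0.5 h array was the lowest of the 13 in 18 genes (40.0%, against 12.3% of all genes), and 37 of the 45 were lower at 0.5 h than at 0 h, where 56.8% of all genes were.

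Compared with 0 h, 10 of the 45 genes were higher in the late window (22.2%, against 8.80% of all genes) and 0 were lower (limma), against 9.90%. At an unadjusted p under 0.05 there were 19 genes in either direction (42.2%, against 32.0%), and the change was above 0 in 29 (64.4%, against 48.5%). This comparison shares its late arrays, and its 0 h array, with those above. The 3 largest rises were those of Cav3 (0.67 ± 0.22, adjusted p = 0.0422), Tnnt3 (0.66 ± 0.18, adjusted p = 0.0193) and Mybph (0.59 ± 0.16, adjusted p = 0.0200). Tnnc2 (0.55 ± 0.18), Tnnc1 (0.55 ± 0.18), Mylpf (0.46 ± 0.14), Myl4 (0.45 ± 0.13), Eno3 (0.43 ± 0.13), Actc1 (0.31 ± 0.10) and Casq1 (0.29 ± 0.09) also rose, at adjusted p up to 0.0483 (Actc1). Casq1 was at its lowest at 0 h (0.807) and Casq2 was at 0.53 ± 0.20 (adjusted p = 0.0804) here. The largest values downward, none past the threshold, were those of Neb (-0.50 ± 0.19, adjusted p = 0.0762), Myh8 (-0.32 ± 0.20), Myl3 (-0.32 ± 0.11), Atp2a1 (-0.25 ± 0.10), Ryr1 (-0.22 ± 0.11) and Myh7 (-0.19 ± 0.21). Of the 10 higher genes, 3 were left without the 5.5 h array (7.23% of all genes) and 3 without the 6.0 h array (7.56%). In these 2 settings the share of the 45 genes was near that of all genes. Left without the 1.0 h array were 6 (8.31% of all genes), and without the 3.5 h array 6 (8.44%). The calls of Myl4 and Tnnt3 held under every scaling, variance model, window and left-out array in which the gene was measured. The probe sets of Myl4 were at 0.84 and 0.057 in this comparison, and no alternative took them apart.

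A smooth course in time, fitted as a spline without windows, passed in 25 of the 45 genes (55.6%), against 38.0% of all genes. The smallest p-values were those of Mybph (adjusted p = 8.76e-05), Tnnt3 (8.99e-05), Tnnc1 (0.000199) and Cav3 (0.000243). With a straight line in its place, 18 genes rose (40.0%, against 11.3% of all genes) and 0 fell, against 9.10%. The highest of the 13 arrays was 5.5 or 6.0 h in 28 genes (62.2%, against 21.9%).

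Some genes were lowest between 2.5 and 4.0 h. Neb had ratios of 1.36 at 0 h, then 0.953, 1.16, 1.09 and 1.12 from 0.5 to 2.0 h, 0.872, 0.593, 0.688 and 0.679 from 2.5 to 4.0 h, and 0.80, 0.931, 1.00 and 1.14 from 4.5 to 6.0 h. It was highest at 0 h, lowest at 3.0 h at 0.437 times its 0 h ratio, and back at 1.14 by 6.0 h, and late minus early was -0.17 ± 0.12 (adjusted p = 0.379) while its spline passed (adjusted p = 0.000973). Ttn passed too (adjusted p = 0.00296), with its lowest log2 ratio, -0.30, at the same time. Myh7 (adjusted p = 0.0203), Myom1 (0.0399), Myh1 (0.0381), Ryr1 (0.0431) and Pygm (0.0249) likewise passed with their lowest array in the middle window, as did Myh3 (0.00274), Smpx (0.0133) and Myl1 (0.0388), which also rose from the early to the late window, while Actn2, lowest at 2.5 h (-0.45), did not (0.0796). The lowest array lay in the middle window for 18 of the 45 genes (40.0%), against 36.6% of all genes, a share near that of all genes.

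**Figure D4:**
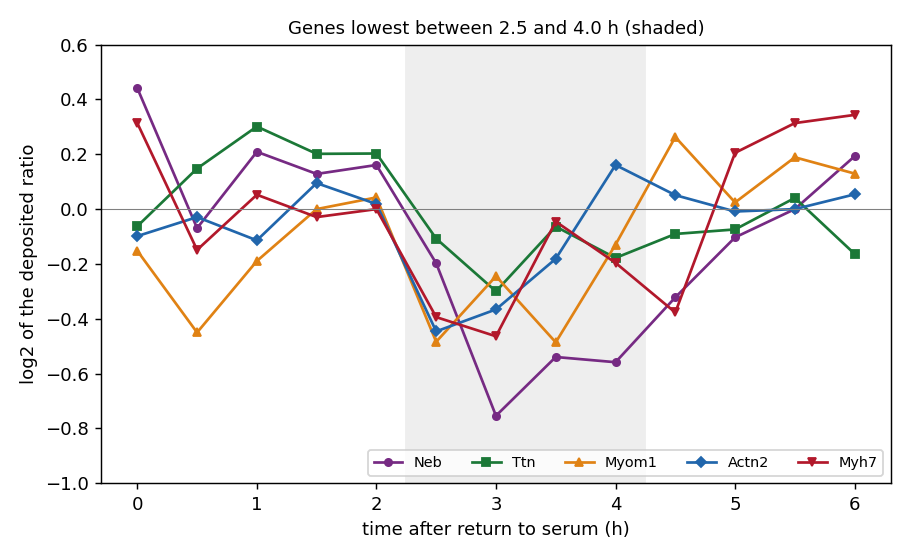
Log2 of the deposited ratio (vertical axis) against time after the return to serum in h (horizontal axis) for 5 genes chosen after their values were seen, with 1 array per point and the middle window shaded. Neb is at -0.75 at 3.0 h and Actn2 to -0.45 at 2.5 h, and both are above 0 at 6.0 h.

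The series was made to find oscillating genes, and a 2 h period, that of the mouse segmentation clock, was tested beside a smooth trend. No gene passed among the 45, and 0 of all 18193 genes did (limma, 0%). In limma's F test of this period, 6 of 45 genes had an unadjusted p under 0.05 (13.3%, against 3.96% of all genes). They were Casq2, Myh7, Cav3, Smpx, Tnni1 and Eno3, in order of p.

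The regulators of muscle differentiation did not move as 1 group. Of 15 listed, 14 were measured. From the early to the late window 3 rose (21.4%, against 11.7% of all genes) and 1 fell (7.14%, against 9.29%), with a median of -0.13. The share that fell was near that of all genes. Myog, the myogenin gene, whose product drives differentiation, had log2 ratios of 0.069 at 0 h, then -0.27, -0.045, -0.036 and 0 from 0.5 to 2.0 h, -0.012, -0.029, 0.0058 and 0.04 from 2.5 to 4.0 h, and 0.19, 0.17, 0.38 and 0.26 from 4.5 to 6.0 h. Every late array was above every early one, and Myog rose by 0.34 ± 0.07 (adjusted p = 0.00194). Mymk, the membrane protein myomaker that fuses myoblasts, rose by 0.44 ± 0.07 (adjusted p = 0.000727), and Mef2c, a partner of the MyoD family, rose by 0.25 ± 0.07 (adjusted p = 0.0251). Mef2a fell by 0.54 ± 0.11 (adjusted p = 0.00348), and Myod1 was at -0.01 ± 0.10 (adjusted p = 0.965). Against 0 h, Mef2c was higher (0.52 ± 0.11, adjusted p = 0.00671), while the myoblast cadherin Cdh15 (-0.57 ± 0.11, adjusted p = 0.00416) and Mymx, which acts with myomaker (-0.57 ± 0.16, adjusted p = 0.0265), were lower. Late against 0 h, 1 of the 14 was thus higher and 2 were lower, where 8.80% and 9.90% of all genes were. For so few genes these counts were near the shares of all genes. In the early window against 0 h only Myf6 (0.47 ± 0.12, adjusted p = 0.0486) passed, upward. In that comparison 1.46% of all genes were called higher and 1.81% lower.

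Of a list of 61 further muscle genes, 56 were measured. From the early to the late window 6 rose (10.7%, against 11.7% of all genes) and 5 fell (8.93%, against 9.29%), shares near those of all genes, with a median of 0.092. Rises were those of Csrp3, a LIM protein of the Z disc (0.61 ± 0.13), the calcium channel subunit Cacng1 (0.45 ± 0.06), Srl, a protein of the sarcoplasmic reticulum (0.44 ± 0.11), beta-tropomyosin, Tpm2 (0.28 ± 0.05), the small heat shock protein Cryab (0.25 ± 0.06) and the fatty acid carrier Fabp3 (0.24 ± 0.07). Falls were those of Xirp1, an actin-binding repeat protein (-0.67 ± 0.15), Pdlim3 (-0.34 ± 0.06), filamin C, Flnc (-0.29 ± 0.09), and the muscle phosphofructokinase, Pfkm (-0.23 ± 0.06), and of Rapsn, which clusters acetylcholine receptors (-0.19 ± 0.05). Late against 0 h, 3 were higher, Lmod2 at 0.78 ± 0.16, Jph1 at 0.55 ± 0.17 and Cacng1 at 0.34 ± 0.09, where 8.80% of all genes were. Lower were 4, Rapsn, Pdlim3, Pfkm and Art1, between -0.44 ± 0.08 and -0.31 ± 0.09, where 9.90% of all genes were. Early against 0 h Xirp1 alone was called (1.04 ± 0.24, adjusted p = 0.0355), where 1.46% of all genes were called higher and 1.81% lower.

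Other measures moved over the same windows, and their part in the muscle gene changes was not tested. The array's control for the 5′ end of 18S ribosomal RNA had ratios of 0.411 to 1.40 on the early and 0.889 to 5.24 on the late arrays, and its 3′ control 0.731 to 1.03 and 0.949 to 1.57. Late minus early log2 differences of the 6 actin and Gapdh controls lay between -0.019 and 0.095. Among smooth muscle markers, 2 of 6 rose (Tagln at 1.25 ± 0.15 and Cnn1 at 0.25 ± 0.05) and 1 fell, with array medians of -0.027 to 0.016 in the early and -0.071 to 0.12 in the late window. Of 7 fibroblast markers 0 rose and 3 fell, and of 7 heart muscle markers 0 rose and 1 fell. Of 7 myoblast, 4 adipocyte and 6 blood and endothelial markers 0 passed in this comparison. Over all genes 11.7% rose and 9.29% fell in it. Late against 0 h, 3 smooth muscle markers, 2 heart muscle markers and 1 blood and endothelial marker (Adgre1, 0.55 ± 0.13) rose, where 8.80% of all genes did. In the same comparison 4 fibroblast markers, 1 myoblast marker (Cdh15, above) and 1 adipocyte marker (Cebpa, -0.80 ± 0.22) fell, where 9.90% of all genes did. Early against 0 h, 2 smooth muscle markers and 1 heart muscle marker rose and 1 fibroblast marker fell, where 1.46% of all genes rose and 1.81% fell. As ratios, none of these markers can show whether such cells were present.

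Of the 22 calls between the early and the late window, 17 held under every alternative scaling, variance model, window and left-out array in which the gene was measured (adjusted p up to 0.0469). The other 5, Ckm, Myh3, Myl1, Myom2 and Smpx, were all lost without the 0.5 h array and all lost without the 6.0 h array. Of the 21 that rose, only Tnni2, Mb, Ckm, Myl4 and Myom2 had several probe sets. These all rose in Tnni2 and Mb and disagreed in sign in Ckm, Myl4 and Myom2. The other genes that rose had 1 probe set each, so agreement between probe sets could not be checked.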

How the data were processed

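RNA of 13 C2C12 samples was hybridised to 1 Affymetrix mouse expression array each, after biotin labelling, per the labels' protocols. The deposited values are linear ratios per probe set. RMA was used, per the submitters' processing notes, with no version given. The scaling behind the authors' ratios is not stated in the labels or files used here. Of 45101 probe sets 64 array controls were left out of the tests. Of the rest, 34945 named 1 gene in the platform annotation, 932 several and 9160 none. Ratios were turned to log2 and averaged over the probe sets of a gene, and the RefSeq table held the gene IDs of all 45 genes, with 0 symbols changed. In 4405 probe sets (9.8%), 2 of them of these genes (Myh2 and Myoz1), no array stood at exactly 1 and 1 was not near the middle of the 13 ratios. They are called floor-like here, and how they came to differ was not tested. Depth does not apply to arrays, whose number limits the precision. The median residual SD within windows was 0.121 (log2) over the 45 genes and 0.102 over all.

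Windows were formed from labelled times, without replicate numbers. limma 3.58.1 (lmFit, eBayes) in R 4.3.3 gave two-sided tests of the window contrasts, of a natural cubic spline with 4 degrees of freedom, and of a cosine and sine of 2 h beside a spline of 3 degrees. Benjamini-Hochberg adjustment ran over all genes. Python 3.11.15 with pandas 2.3.3, numpy 2.4.6 and matplotlib 3.10.9 made tables and figures. The scripts were tested on simulated data. The gene list, its classes and the tests were chosen with earlier results of these data known. Named were all genes past a threshold, in comparisons with fewer than 12 such genes the 6 largest rises and 6 largest falls, and isoform pairs. Of the other lists, up to 8 called genes a comparison were named. Alternatives were quantile scaling, centring on the array median, only probe sets without the suffixes _s_at, _x_at or _a_at, and a variance trend with robust prior. Further ones were narrower windows, a minimum change, other curves and periods, no floor-like probe sets, and each array left out in turn. Scaling moved the median of all genes on an array by at most 0.034 (log2). No batch was given.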

Additional observations from a re-analysis of the deposited data

Results flagged for a closer look

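In 5 of 135 gene and window combinations, 1 array stood apart from the other three of its window by Dixon's gap test, and chance alone flags about 1 in 20. All values are log2 ratios. In the late window the 5.5 h array was high for Actn3, the fast actinin, at 0.23 against -0.01 to 0.0029, and for the fast myosin heavy chain Myh2 at 0.10 against -0.17 to -0.13. Ckm was at 0.17 at 4.0 h, against -0.088 to -0.06 on the other middle arrays. In the early window Myoz1 was at 0.10 at 0.5 h, against -0.025 to -0.013, and Mybpc1 at -0.066 at 1.5 h, against 0.0065 to 0.017.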

How the results depend on the processing

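No result changed direction under any alternative that was run for a called gene. Requiring a log2 change of 0.5 left 6 higher and 0 lower genes late against early (2.93% and 2.44% of all genes), and 5 higher late against 0 h (4.68% of all genes). Probe sets without the suffixes _s_at, _x_at or _a_at covered 38 of the 45 genes, so that 6 of the 21 higher late against early were not measured. Of these, Casq2 had an _s_at probe set, and Acta1, Myl1, Tnni1, Tnnt1 and Tnnt3 had _a_at probe sets. Myh3 and Myom2 were measured and lost, which left 13 higher (10.5% of all genes). Without floor-like probe sets 1 gene, Myoz1 (-0.33, adjusted p = 0.0416), was lower late against 0 h. Leaving out single arrays gave 16 to 22 higher genes late against early (21 with all arrays), 3 to 11 higher (10) and 0 to 1 lower (0) late against 0 h, and 0 to 1 lower early against 0 h (0). With 3 higher genes late against 0 h, without the 5.5 or the 6.0 h array, 7.23% and 7.56% of all genes were higher. The gene gained as lower late against 0 h was Neb without the 2.5 or the 6.0 h array and Myl3 without the 5.0 h array. The spline called 17 to 29 genes across its alternatives and 25 as reported. The 2 h test called 0 genes, as did periods of 1.5 and 3 h and a straight trend, where 0%, 0.407% and 0% of all genes passed. In the early comparison quantile scaling left 0.209% of all genes higher and 0.0385% lower, against 1.46% and 1.81%. No paired analysis was possible because each time point has a single array and the labels number no replicates.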

Other observations

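The 2 probe sets that name both Myh7 and Myh6, the slow and the alpha cardiac myosin heavy chains, belong to no single gene. One had a ratio of 1.27 at 0 h, its highest, and of 1.05, 1.03, 1.02 and 1.03 on the late arrays, with a late minus early log2 difference of 0.24. The other was at 1.02 at 0 h and lowest at 6.0 h (0.770), with a difference of -0.048. In 11 of the 15 genes with several probe sets, at least 1 pair of probe sets differed in the sign of the late minus early change.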
